A study of Brachypodium distachyon with 6 samples.

Results

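The genes described here are 200 marker genes of cells between the G2 and M phases of the cell cycle (G2/M cells), taken from the single-cell atlas of the young leaf that the same study made of the grass *Brachypodium distachyon*. Their list came from a comparison of the cells scored as G2/M with the other cells of the atlas, and the study's methods say that it was restricted to transcription factors higher in that phase. The list held 316 genes. Of these, 56 were left out because the study also lists them among its named marker genes (7 genes), its stomatal regulon transcription factors (53 genes) or the targets that it assigns exclusively or preferentially to BdMUTE or BdFAMA (2 genes), with some genes in more than 1 of these lists. The remaining 260 were ranked by how much larger the share of cells with the transcript was in G2/M cells than in other cells, and the first 200 were kept. Rank 1 is the gene with the largest difference in shares among these 260, and genes left out before could rank above a member. All 200 were in the bulk count table of 36647 genes, and 199 passed the filter on low counts that left 23677 genes for testing.

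The bulk samples were 6 polyA RNA-seq libraries from the developmental zone of leaves of wild-type Bd21-3 plants, 3 weeks old and grown in soil. In 3 libraries, labelled protoplasted, the tissue had been digested with the wall-degrading enzymes Cellulase Onozuka RS and Macerozyme R10 before RNA extraction, and 3 libraries, labelled non-protoplasted, came from undigested zones. All 6 samples shared the same genotype, each library pooled several leaf zones, and the digest used more zones than the control. Among the labels, the entry for treatment gives every sample the opposite group, so that all directions below rest on the sample titles and library names, and exchanging the groups exchanges every direction. The single cells that gave the marker list were protoplasts too. The members were chosen on other material than the bulk libraries, and the bulk contrast was not part of the rule. A gene still had to be detected in digested cells to enter the list, so genes lost on digestion could be missing from it. The choice is thus not independent of digestion. Its part in the differences between members and all genes below was not tested.

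G2 is the gap between DNA replication and division, and M is mitosis itself. In plants, genes that act in mitosis are switched on together at this transition. In *Arabidopsis thaliana*, MYB3R transcription factors bind a shared promoter element of such genes, some MYB3R proteins activate and others repress them, and the CXC-domain protein TSO1 acts with MYB3R1. In a grass leaf, dividing cells are concentrated at the base, where the developmental zone lies, and files of older cells follow towards the tip. By the study's description the list holds transcription factors, and so putative regulators found in G2/M cells. Cyclins, kinesins and other parts of the division machinery should then be absent, which could not be checked gene by gene. No annotation at hand gave a gene name to any of the 200 members, and 15 could be paired with an identifier of the Bd21 reference line (Bradi identifiers). The G2/M label of the members could thus not be checked against known division genes and rests on the study's own scoring of its cells.

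The 6 libraries held 17482438 to 24621927 counts in genes. The groups stood far apart, with 95.1% of the variance of log2 CPM (counts scaled to library size) on the first principal component, and 77.0% of all genes tested differed between them. Of the fixed cell type markers, 2 of 2 for mesophyll, 2 of 3 for epidermis and 4 of 4 for the stomatal lineage were higher in the libraries labelled protoplasted, and 5 of 7 vascular markers were higher and 1 lower. The summed level of the epidermal markers was 231 to 327 CPM in the libraries labelled protoplasted and 52.4 to 66.8 CPM in the others, and that of the stomatal markers was 11.4 to 15.2 and 3.52 to 5.11 CPM. Of 4 shoot apex markers, 1 was tested and did not pass, and *BdKN1* and *BdKNAT1-like* had at most 3 counts in every library. The part of these shifts in the results below was not tested. In bulk tissue, fewer cells of a type and less RNA per cell cannot be told apart.

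The members were well measured in whole tissue. TPM, a level scaled to library size that also divides by gene length, had a median over the 200 members of 17.3, 16.7 and 16.9 in the libraries labelled protoplasted. In the libraries labelled non-protoplasted the median was 8.89, 11.4 and 10.8 TPM. In every library the member median stood above that of all genes with counts, which was 3.82 to 4.37 TPM. Between 192 and 195 members (96.0% to 97.5%) reached 1 TPM in a given library, against 66.8% to 69.3% of genes with counts, and 183 members did so in all 6. At least 10 counts were present in every library for 191 members, and 3 members had 0 counts in at least 1 library. Members of high rank in the single cells tended to be more abundant in bulk, with a Spearman correlation between rank number and mean CPM of -0.36 over the 199 tested members. This is a correlation across genes, which are not independent replicates, and transcript abundance enters both the share of cells with a transcript and the CPM.

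**Figure D1:**
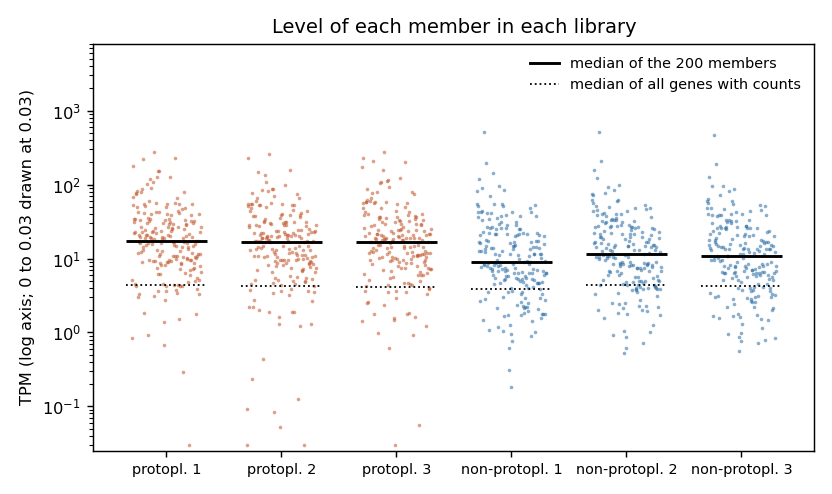
Level of each of the 200 members in each library (TPM, log axis), with 1 point per gene ordered by rank from left to right within a library, red for libraries labelled protoplasted and blue for non-protoplasted. The solid line is the member median (16.7 to 17.3 TPM in the first 3 libraries, 8.89 to 11.4 TPM in the last 3) and the dotted line the median of all genes with counts.

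Together the members took 0.725% to 0.786% of all counts in the libraries labelled protoplasted and 0.544% to 0.604% in the others, so that the groups did not overlap. These shares are scaled to library size alone. On that scale the genes tested were centred on a rise of 0.42 log2 units, beside 0.78 for the members (medians). A higher share is thus not in itself particular to the members, and it was not compared with that of other genes. A pair of genes weighed heavily on the share in the undigested libraries. The members of ranks 21 and 28, chosen here after their values were seen because they had the highest mean CPM, held 16.4% to 18.5% of all member counts in the libraries labelled non-protoplasted but 1.90% to 2.19% in those labelled protoplasted. Without this pair the members took 0.711% to 0.769% and 0.444% to 0.505% of all counts. The member of rank 21 had 3.32, 2.90 and 5.41 CPM in the libraries labelled protoplasted and 707, 634 and 590 CPM in those labelled non-protoplasted, where it was also the first of all members per length (523 TPM in replicate 1, against 3.31 TPM in protoplasted replicate 1). Every digested library lay far below every undigested one (log2 fold change -7.37 ± 0.27 SE, edgeR quasi-likelihood test with Benjamini-Hochberg adjustment over all genes tested, adjusted p = 2.27e-08). The member of rank 28 was lower by a smaller factor, at 132 ± 15.7 against 466 ± 26 CPM (SD, n = 3 libraries each; log2 fold change -1.82, edgeR adjusted p = 2.12e-06). Among the abundant members that moved the other way, rank 5 stood at 241 ± 40.7 against 85.7 ± 10.4 CPM and rank 126 at 182 ± 28.5 against 49.6 ± 3.91 CPM (log2 fold changes 1.49 and 1.87).

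The comparison of both groups asks how far the digest that precedes single-cell sequencing changes the level of these genes. Of the 199 tested members, 97 (48.7%) rose and 57 (28.6%) fell in the libraries labelled protoplasted, and 45 (22.6%) did not pass an adjusted p of 0.05. Over all genes tested, 38.7% were higher and 38.3% lower. The share of members that differed in either direction, 77.4%, was close to the 77.0% of all genes. Of the members that differed, 63.0% were higher, against 50.2% of all genes that differed. This split depended on the scaling of the libraries, since with library size alone in place of TMM factors it was 75.8% for the members and 61.2% for all genes. All counts in this paragraph are descriptions of the list, which was not tested as a set. With 3 libraries against 3 an exact permutation test of a single gene cannot give a two-sided p below 0.1, so that calls rest on the model fitted across all genes.

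The median log2 fold change of the members was 0.40 (quartiles -0.57 and 1.17), beside 0.04 (-1.27 and 1.03) for all genes tested, so that the members were centred a little higher and lay closer together. Changes within 1 log2 unit of zero were found for 107 members (53.8%) and for 45.7% of all genes. Past a log2 fold change of 1, 58 members (29.1%) were higher, beside 25.4% of all genes. Below -1, 33 members (16.6%) were lower, beside 28.5%. Further out, 9 members (4.52%) fell below a log2 fold change of -3, beside 12.6% of all genes, whereas 13 members (6.53%) lay above 3, beside 5.09%. The values of the groups did not overlap for 159 members (79.9%), 100 of them higher and 59 lower, against 80.5% of all genes, of which 40.4% were higher and 40.1% lower.

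**Figure D2:**
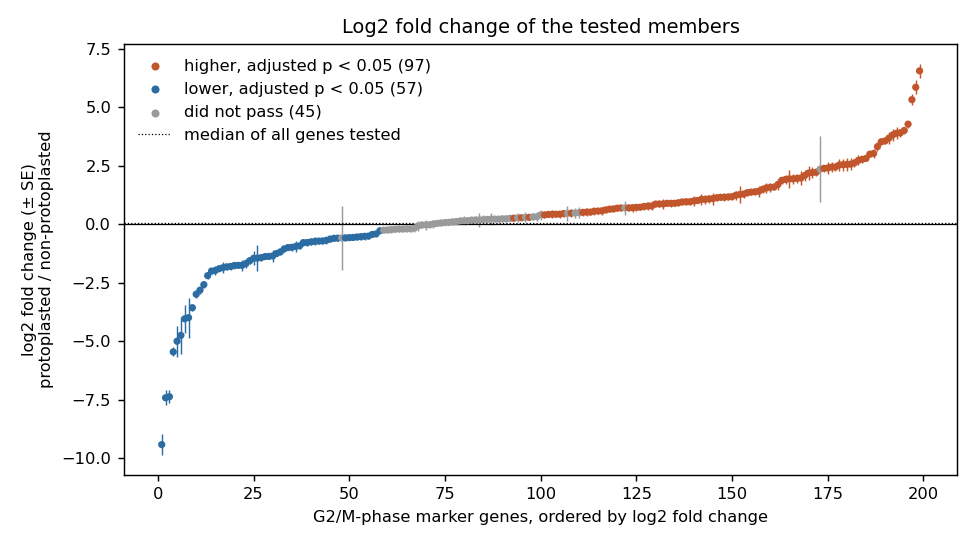
Log2 fold change of the 199 tested members (libraries labelled protoplasted over non-protoplasted, vertical axis, bars ± SE), ordered by value along the horizontal axis. The 97 members called higher (red) outnumber the 57 called lower (blue), 45 did not pass (grey), and 2 grey points with long bars are members whose libraries labelled protoplasted disagree.

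The member with the largest rise was BdiBd21-3.1G1047200 (rank 62), with 74.8, 59.2 and 114 CPM in the libraries labelled protoplasted and 1.09, 0.787 and 0.804 CPM in those labelled non-protoplasted. All 3 digested libraries lay far above the undigested ones (log2 fold change 6.55 ± 0.31 SE, edgeR adjusted p = 9.2e-08). BdiBd21-3.3G0684700 (rank 98) followed, with 27.0, 22.8 and 25.8 CPM against 0.136, 0.416 and 0.662 CPM. Its undigested libraries held 2, 9 and 14 counts, of which the first is under the floor of 3 counts (0.106 to 0.205 CPM, depending on the library), and all lay far below the digested ones (log2 fold change 5.85 ± 0.29 SE, edgeR adjusted p = 1.24e-07). Next came the members of ranks 34, 136 and 52, at 134 ± 25.2, 116 ± 13.7 and 143 ± 19.6 CPM against 3.34 ± 0.813, 5.96 ± 0.382 and 8.92 ± 0.489 CPM (log2 fold changes 5.32, 4.28 and 4.0). These 3 were named after their values were seen. Per length they held 1.84 to 6.61 TPM in the undigested libraries, around the median of all genes with counts, and 42.1 to 222 TPM in the digested ones.

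On the other side, BdiBd21-3.2G0243900 (rank 166) had counts of 0, 0 and 1 in the libraries labelled protoplasted and 9.68, 14.1 and 12.4 CPM in the others. From 1 count against 709, the level in the libraries labelled non-protoplasted was 1005 times as high, with an exact 95% interval for counting error alone of 179.9 to 39760, and the fitted log2 fold change of -9.42 (edgeR adjusted p = 9.98e-08) depends on the prior count. It was -6.95 with a prior count of 2 and -11.07 without protoplasted replicate 3, the library that holds the 1 count. BdiBd21-3.3G0652800 (rank 47) had 0.496, 0.248 and 0.555 CPM against 101.7, 60.4 and 61.9 CPM (log2 fold change -7.42 ± 0.33 SE, edgeR adjusted p = 5.94e-08). For both genes the transcript was nearly absent after digestion and present in all 3 undigested libraries. The member of rank 65, named after its values were seen, had 2.33, 1.49 and 1.89 CPM against 97.2, 78.5 and 75 CPM (log2 fold change -5.46).

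Of the 15 members with a Bradi identifier, 14 were tested, and 7 were higher, 5 lower and 2 did not pass. The pairs come from a shortened list that the study had sorted by its own fold change of this same contrast, so that these 15 are not a neutral sample of the members and support nothing on direction. Bradi3g48447 (rank 131) had 40.9, 35.2 and 37.1 CPM in the libraries labelled protoplasted and 2.93, 2.68 and 1.99 CPM in the others. This was the largest rise among the 15 (log2 fold change 3.91 ± 0.17 SE, edgeR adjusted p = 5.52e-08). Bradi1g30000 rose by 3.31 ± 0.19, from 2.45, 4.30 and 3.69 CPM to 34.6, 37.8 and 33.1 CPM. Bradi2g49620 (1.96 ± 0.19), Bradi4g36587 (1.94 ± 0.40) and Bradi3g57640 (1.37 ± 0.13) rose by smaller log2 fold changes. The weakest rises were those of Bradi3g28950 (0.71 ± 0.17) and Bradi2g08810 (0.69 ± 0.14). In all 7 genes the lowest library labelled protoplasted stood above the highest library labelled non-protoplasted.

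The 5 lower genes of this group spanned a wide range. Bradi3g51630 (rank 96) had 1.72, 0.0354 and 0 CPM against 9.96, 8.79 and 8.89 CPM (log2 fold change -3.99 ± 0.85 SE, edgeR adjusted p = 0.00185). Its value rested on protoplasted replicate 1, without which it was -8.60 (edgeR adjusted p = 1.11e-07), and it was -3.40 without protoplasted replicate 3 and -6.29 with limma-voom. Bradi5g19260 had 8.44, 6.62 and 9.70 CPM against 26, 30.7 and 29.7 CPM, and Bradi2g52227 had 9.55, 5.81 and 6.33 CPM against 23.1, 25.5 and 20.9 CPM (log2 fold changes -1.81 ± 0.16 and -1.68 ± 0.20). Both fell to well under their undigested level in all 3 libraries. Bradi3g05270 fell by 1.18 on the log2 scale, and the smallest fall was that of Bradi2g46230, from 129, 154 and 147 to 119, 93.3 and 89.1 CPM (-0.52 ± 0.14, edgeR adjusted p = 0.00866). The call for Bradi2g46230 was lost with library size alone (-0.14) and on both TPM scales (-0.23 and -0.24).

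Of the remaining 3 genes with a Bradi identifier, Bradi3g52547 (rank 68) had 11.7, 22.4 and 24.4 CPM against 7.84, 15.5 and 12.5 CPM. Its groups overlapped and it did not pass (0.70 ± 0.30, edgeR adjusted p = 0.0597), but this call turned with the processing. It passed with DESeq2 (adjusted p = 0.0483), library size alone (0.00938), no filter (0.0369), log2(TPM + 1) (0.0256) and log2(TPM + 0.1) (0.0315). It also passed without protoplasted replicate 1 (0.96, edgeR adjusted p = 0.00298) and without non-protoplasted replicate 2 (0.90, edgeR adjusted p = 0.0434). Bradi4g26170 (rank 147) was the 1 member left untested, with counts of 2, 1 and 7 against 13, 5 and 5. Fitted without the filter, it had a log2 fold change of -1.69 ± 0.77 SE and did not pass (edgeR adjusted p = 0.0731). The last of them is Bradi5g05110, the first-ranked member.

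Bradi5g05110, which had the largest difference in shares among the 260 genes kept, had 0.306, 0.0354 and 65.8 CPM in the libraries labelled protoplasted. In those labelled non-protoplasted it had 39.8, 33.3 and 26.5 CPM. The transcript was thus near the floor in replicates 1 and 2 and above every undigested library in replicate 3. Its mean difference did not pass (log2 fold change -0.59 ± 1.36 SE, edgeR adjusted p = 0.703). Without protoplasted replicate 3 it was -7.58 (edgeR adjusted p = 8.37e-07), and without protoplasted replicate 1 or 2 it was 0.00 and 0.02. With limma-voom, which works on log values, it was -4.99 (adjusted p = 0.0161). A single library therefore decided the value of the first-ranked member.

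Such disagreement was next looked for in all members, by a rule set after these values were seen. A gene was taken as spread within a group when its highest library reached 1 CPM and was at least 3 times the lowest, with the lowest raised to the floor of 3 counts. By this rule 8 members (4.02%) were spread within the libraries labelled protoplasted, beside 2.55% of all genes tested, and 0 members within those labelled non-protoplasted, beside 0.726%. The highest library of the 8 was protoplasted replicate 1 in 6 genes, replicate 2 in 1 gene and replicate 3 in 1 gene. Of all 604 genes tested that were spread within the libraries labelled protoplasted, 134 were highest in replicate 3. Their split between replicates 1 and 2 was not counted, so the weight on replicate 1 cannot be called particular to the members. Across genes, the counts of protoplasted replicate 1 differed most from the others. The chi-square per degree of freedom was 43.3 against replicate 2 and 36.6 against replicate 3, but 11.3 between replicates 2 and 3. The part of this in the spread of the members was not tested. Over all members the median SD of log2 values was 0.163 and 0.139 in the libraries labelled protoplasted and non-protoplasted. For all genes tested it was 0.191 and 0.15. The members stood at higher levels than most genes, and this comparison was not matched for level. It therefore does not show how steady the members were beside genes of like level.

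Of the 8 spread members, 4 were among the first 67 by rank, 2 among the next 67 and 2 among the last 66. Rank 2 had 2.22, 0 and 0.666 CPM against 32.0, 33.4 and 25.9 CPM. Rank 6 had 9.13, 0.956 and 2.67 CPM against 65.3, 79.4 and 64.1 CPM. Rank 17 had 8.52, 0.177 and 1.93 CPM against 87.0, 110 and 86.6 CPM. In these 3 genes replicate 1 kept the most transcript and replicate 2 the least, and all 3 were called lower (log2 fold changes -5.00 ± 0.66, -4.04 ± 0.59 and -4.75 ± 0.79 SE). Without protoplasted replicate 1 the values were -6.51, -5.26 and -6.50, and that of rank 2 was -4.39 without protoplasted replicate 2. Rank 78 had the same order of replicates, with 16.7, 0.0354 and 0.259 CPM, but its libraries labelled non-protoplasted held 0.886, 1.2 and 1.18 CPM and lay between them. It did not pass (2.35 ± 1.41, edgeR adjusted p = 0.154). Rank 96 is Bradi3g51630 and rank 139 is Bradi4g36587, which had 3.32, 10.0 and 9.14 CPM against 1.84, 2.31 and 1.70 CPM, with replicate 1 the lowest. Rank 153 had 2.60, 0.531 and 0.703 CPM against 4.98, 2.54 and 3.03 CPM. Its groups overlapped, and its log2 fold change was -1.45, or -2.47 without protoplasted replicate 1.

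**Figure D3:**
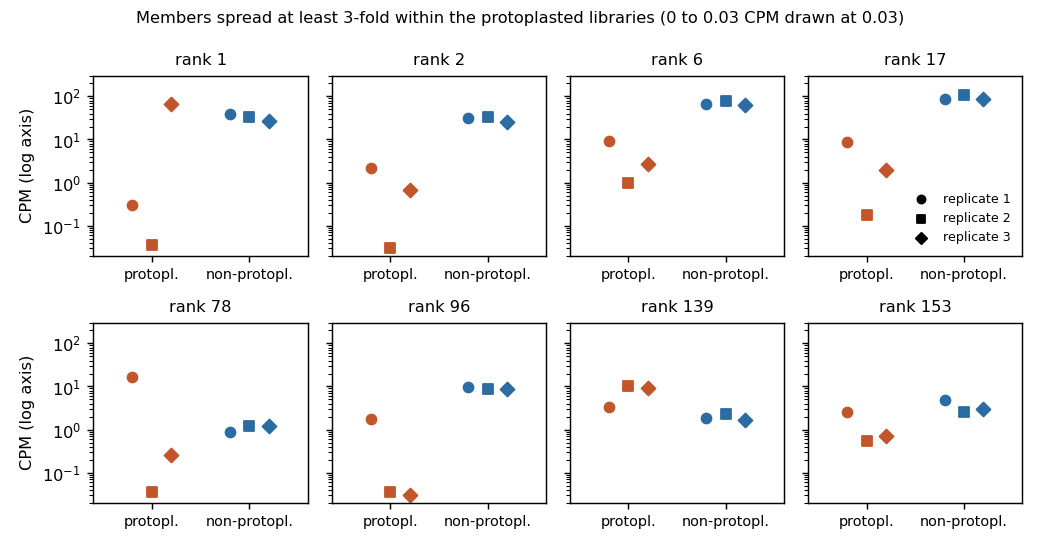
CPM (log axis) in each library of the 8 members spread at least 3-fold within the libraries labelled protoplasted (red), beside the libraries labelled non-protoplasted (blue), with marker shape giving the replicate number. Rank 1 is high in protoplasted replicate 3 alone (65.8 CPM), ranks 2, 6, 17, 78, 96 and 153 are highest in replicate 1, and rank 139 is lowest there.

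Within the 200 members, the split into higher and lower genes varied little with rank. Among the first 67 members by rank, 31 were higher (46.3%) and 18 lower (26.9%), with a median log2 fold change of 0.25. The next 67 held 33 higher (49.3%) and 20 lower (29.9%), with a median of 0.29. The last 66, of which 65 were tested, held 33 higher (50.8%) and 19 lower (29.2%), with a median of 0.50. Over all genes tested, 38.7% were higher and 38.3% lower. Of the 60 genes of the G2/M list ranked under the members, 58 were tested. They held 34 higher (58.6%) and 9 lower (15.5%), with a median of 0.71, and their difference from the members was not tested. Below a log2 fold change of -3 lay 6 of the first 67 members (8.96%) and 1 of the next 67 (1.49%). The last 66 held 2 (3.08% of those tested), beside 12.6% of all genes tested. Over the 199 tested members the Spearman correlation of rank number and log2 fold change was 0.08, given as a description. At the limit of the rule, the last member inside (rank 200) had 70.7, 78.9 and 70.9 CPM against 22.4, 25.1 and 25.7 CPM, and the first gene outside had 11.3, 7.40 and 9.52 CPM against 29.5, 25.3 and 25.7 CPM. The log2 fold changes of this pair were 1.59 and -1.51, and 6 members and 1 gene outside shared the same difference in shares at the limit.

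The members were somewhat longer than other genes, with a median length of 3590 bases over the 199 tested, beside 3170 for all genes tested. Over all 200 members the length ran from 801 to 19796 bases. Length and log2 fold change had a Spearman correlation of -0.18 over the members and -0.05 over all genes tested, both as descriptions across genes. Of the members, 4 pairs were neighbours in the count table, and reads shared between neighbouring or near-identical genes could have been split, since the counting mode is not given in the sources used here. The pair of ranks 36 and 174, which had the most counts, moved to 58.4 ± 2.28 from 49.2 ± 2.71 CPM and to 21.0 ± 0.416 from 11.1 ± 0.670 CPM. Only the second passed (log2 fold changes 0.25, edgeR adjusted p = 0.0557, and 0.92, edgeR adjusted p = 8.04e-05). The pair of ranks 69 and 150 changed little (0.25, edgeR adjusted p = 0.0486, and 0.10, edgeR adjusted p = 0.485). In the pair of ranks 65 and 178 both fell but by unequal amounts, -5.46 and -1.86 on the log2 scale. In the pair of ranks 35 and 100 the first did not pass (0.14) and the second was slightly lower (-0.44).

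Beside the members stood the other lists of the study that the rule had left out. Over all genes tested, 38.7% were higher and 38.3% lower, and 12.6% lay below a log2 fold change of -3. Of the 53 stomatal regulon transcription factors in the same G2/M list, 22 were higher (41.5%) and 19 lower (35.8%), with a median log2 fold change of 0.14. Below -3 lay 10 (18.9%), beside 9 of the 199 members (4.52%). All 147 regulon factors, which include these 53, held 32 higher (21.8%) and 93 lower (63.3%) genes (median -1.61), with 56 (38.1%) below -3. The exclusive or preferred targets of BdMUTE and BdFAMA, a list without most targets that both factors share, had 79 tested genes. Of these, 48 were higher (60.8%) and 16 lower (20.3%), with a median of 0.70. The members thus lay between both lists in their split of directions. The difference between the lists was not tested. Spread within the libraries labelled protoplasted, by the rule above, was found for 6 of the 53 regulon factors (11.3%). This stood beside 4.02% of the members and 2.55% of all genes tested.

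**Figure D4:**
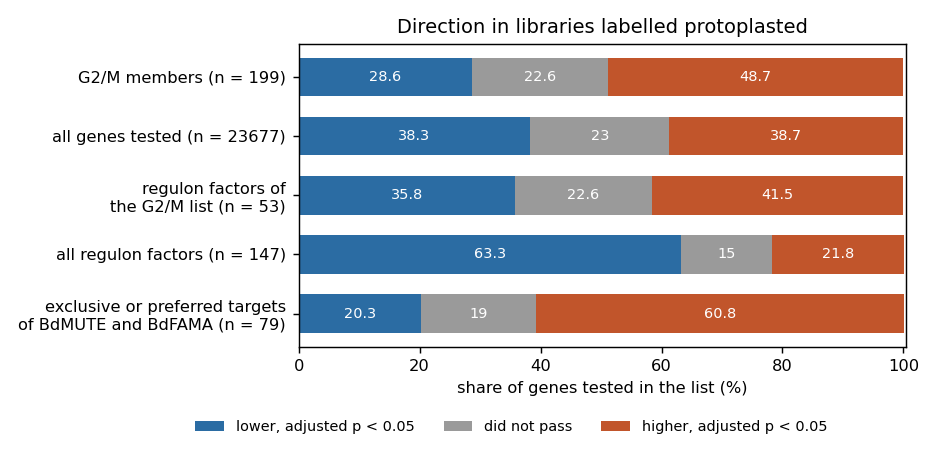
Share of tested genes (%) that were lower (blue), did not pass (grey) or were higher (red) in the libraries labelled protoplasted, for the members, all genes tested and 3 lists of the study (number tested in parentheses). The members had 28.6% lower and 48.7% higher, all genes 38.3% and 38.7%, and all regulon factors 63.3% lower.

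The G2/M list also held 7 genes that the study names, which were not members but give known regulators of division and of stomatal development for comparison. Of these, 5 were higher and 0 lower, beside 38.7% higher and 38.3% lower of all genes tested. In either direction 71.4% of the 7 differed, beside 77.0% of all genes. So few genes, which the study had picked out by name, support nothing on direction. *BdGRAS32*, a GRAS-family gene whose rice counterpart acts in brassinosteroid responses, had 39.4, 34.4 and 35.1 CPM against 21.7, 22 and 17.9 CPM (log2 fold change 0.82 ± 0.13 SE, edgeR adjusted p = 0.000253). *BdTCP4-like*, of a family that restrains cell proliferation in *Arabidopsis* leaves, had 103, 113 and 119 CPM against 20.3, 27.2 and 23.7 CPM. *BdICE1*, the partner of the stomatal bHLH factors, had 154, 125 and 129 CPM against 26.3, 32.6 and 27.6 CPM. Both rose by a log2 fold change of 2.23, with no overlap of the groups.

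*BdMUTE*, a bHLH factor of stomatal precursors that in grasses is needed for subsidiary cells, had 3.67, 1.52 and 2.41 CPM against 0.136, 0.231 and 0.142 CPM, the latter from counts of 2, 5 and 3 (log2 fold change 3.82 ± 0.48 SE, edgeR adjusted p = 5.51e-05). *BdFAMA*, which promotes guard cell differentiation, had 8.44, 7.01 and 6.70 CPM against 4.98, 3.15 and 3.78 CPM (0.91 ± 0.21 SE, edgeR adjusted p = 0.00329). The rise of these 2 genes stood beside the higher summed level of the stomatal markers, a list they belong to.

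The remaining 2 did not pass. *BdTSO1-like*, whose *Arabidopsis* counterpart acts with MYB3R1, had 147, 102 and 123 CPM against 140, 148 and 133 CPM (log2 fold change -0.18 ± 0.15 SE, edgeR adjusted p = 0.297, and -0.31 with edgeR adjusted p = 0.0361 without protoplasted replicate 1). *BdMYB88-like*, whose *Arabidopsis* counterpart limits divisions late in the stomatal lineage, had 25, 21.1 and 18.8 CPM against 22.8, 25.9 and 23.0 CPM (-0.14 ± 0.14 SE, edgeR adjusted p = 0.367). Both had overlapping groups, and both had positive values that did not pass with library size alone and on the TPM scales.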

How the data were processed

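The libraries were made by the authors with the RNeasy micro kit, polyA selection and the NEBNext Ultra II Directional kit. Per the study's methods, reads were aligned with bowtie2 to Bd21-3 v1.1 and counted with summarizeOverlaps. The deposited table holds raw counts per gene, together with a length-scaled signal (counts per kilobase), TPM and group means of TPM that the authors computed from those counts. The marker list was mapped to another version of the annotation (v1.2), and identifiers were matched as written. The counting mode and strand setting are not given in the sources used here. The group means were not used.

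Samples were grouped by title. Genes were kept by filterByExpr (minimum count 10), scaled by TMM and tested with edgeR 4.0.16 quasi-likelihood in R 4.3.3 across 23677 genes, with Benjamini-Hochberg adjustment and a threshold of 0.05. CPM values are scaled by TMM, and SE is the absolute log2 fold change over the square root of F. Replicates are biological per the study's methods. On simulated data in which few genes changed, the same fit recovered 57.6% of 99 genes changed by 1 log2 unit. It recovered 98% of 99 genes changed by 2 log2 units, and it called 17 unchanged genes. Far more genes differed in the real libraries, so these shares are not the sensitivity of the real contrast. The alternatives were DESeq2 1.42.0, limma 3.58.1, other scaling and filters, limma on log2(TPM + 0.1) or log2(TPM + 1), libraries left out, a replicate block, exchanged groups and other readings of the membership rule. Named genes were the 15 members paired with a Bradi identifier, of the others the 2 highest and 2 lowest called members without overlap and with a mean of at least 10 CPM in a group, and the 7 named genes of the list. The members and lists were chosen with earlier results of these data known. No sequences were used here.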

Additional observations from a re-analysis of the deposited data

How the results depend on the processing

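The counts of members in each direction moved by less than 1.5 times under DESeq2, other scalings and filters, limma-voom, both TPM scales, the replicate block and the left-out libraries. When the groups were exchanged, as the treatment entry has them, 57 members were higher and 97 lower, 33 lay above 1 and 58 below -1, and the median was -0.40. Leaving out the listed genes after taking the first 200 gave 150 members, with 74 higher, 41 lower and a median of 0.31. With all genes of the G2/M list as members, 156 were higher, 94 lay above 1 and 58 below -1. The median log2 fold change was 0.78 with library size alone, 0.58 on log2(TPM + 1) and 0.59 on log2(TPM + 0.1), which also moved the median of all genes by 0.38, 0.21 and 0.27. Relative to the median of all genes it was 0.36 in the main fit and 0.36, 0.33 and 0.28 under these 3 settings. Testing without the filter moved the median of all genes by -0.11.

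Leaving out each library in turn gave 86 to 104 members higher, 55 to 61 lower, 55 to 58 above 1, 32 to 36 below -1 and medians of 0.31 to 0.42, and over all genes 8305 to 9702 higher and 8581 to 9690 lower. Of the 154 calls, 140 were kept in all 6 fits and 14 were lost in at least 1. Whether the replicate numbers pair the libraries could not be decided. Deviations from the group mean correlated at 0.121, 0.0379 and 0.0832 for same-numbered libraries and at -0.0974 to 0.0457 for the others. Such deviations cancel out within a group, so these values are not independent. With the replicate block 99 members were higher and 56 lower, and 151 of the 154 calls were kept. Bradi3g52547 passed with the block (edgeR adjusted p = 0.0028).

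For Bradi5g05110 the value was 0.00027 without protoplasted replicate 1, 0.016 without replicate 2, -7.58 without replicate 3 and 0.59 with groups exchanged. *BdTSO1-like* gave 0.20 with library size alone, 0.094 on log2(TPM + 1) and 0.095 on log2(TPM + 0.1). *BdMYB88-like* gave 0.24, 0.13 and 0.14 there. The cause was not tested. Exchanged groups gave, for the higher genes, -6.55 and -5.85 for the strongest unpaired pair, -1.37 (Bradi3g57640), -1.96 (Bradi2g49620), -0.70 (Bradi3g52547), -0.69 (Bradi2g08810), -3.91 (Bradi3g48447), -3.31 (Bradi1g30000), -1.94 (Bradi4g36587), -0.71 (Bradi3g28950), -0.82 (*BdGRAS32*), -2.23 (*BdTCP4-like* and *BdICE1*), -0.91 (*BdFAMA*) and -3.82 (*BdMUTE*). They gave 9.42 and 7.42 for the lowest unpaired pair, 3.99 (Bradi3g51630), 0.52 (Bradi2g46230), 1.81 (Bradi5g19260), 1.18 (Bradi3g05270), 1.68 (Bradi2g52227), 0.18 (*BdTSO1-like*) and 0.14 (*BdMYB88-like*). Apart from the exchange, 372 of 394 values of 25 named genes stayed on their side of the threshold with their direction, 3 lost a call, 11 gained one and 8 changed sign. Depth limits levels under 0.205 CPM.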

Other observations

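The 60 genes of the G2/M list that ranked below the members were also measured, and 58 were tested. Of these, 34 (58.6%) rose and 9 (15.5%) fell in the libraries labelled protoplasted, beside 38.7% and 38.3% of all genes tested. The median log2 fold change was 0.71, beside 0.40 for the members and 0.04 for all genes tested. Past a log2 fold change of 3, 7 of the 58 were higher (12.1%, beside 5.09% of all genes). Below -3 lay 2 (3.45%, beside 12.6%). In the libraries labelled protoplasted, 4 of them (6.9%) were spread at least 3-fold, beside 2.55% of all genes. In those labelled non-protoplasted, 2 were so (3.45%), beside 0.726%. The differences between the lists were not tested.

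Among the members with the highest mean CPM, the levels of several did not differ beyond their spread. Rank 4 stood at 156 ± 22.6 against 133 ± 7.60 CPM (edgeR adjusted p = 0.153), rank 13 at 138 ± 19.3 against 127 ± 6.54 CPM (edgeR adjusted p = 0.463) and rank 3 at 119 ± 7.86 against 140 ± 15.8 CPM (edgeR adjusted p = 0.127), each as mean ± SD over 3 libraries. In all, 33 members had a log2 fold change of at most 0.25 in size. All genes tested were not counted at this limit, so the number describes the members alone.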
